A study of Rattus norvegicus with 12 samples.

Results

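The nuclear genes for the protein subunits of the mitochondrial respiratory chain and ATP synthase were followed in mesenteric lymph nodes of rat pups that received conjugated linoleic acid (CLA) by different routes. They were chosen by symbol: those beginning with Ndufa, Ndufb, Ndufc, Ndufs, Ndufv, Uqcr, Cox4 to Cox8 or Atp5, together with Sdha, Sdhb, Sdhc, Sdhd, Cyc1 and Cycs, while assembly factors with the prefix Ndufaf were left out. Of the 14217 genes with a probe set of their own on the array, 81 were members: 34 of complex I, 4 of complex II, 8 of complex III, 19 of complex IV and 16 of complex V. A further 7 genes, Atp5mc1, Atp5mc2, Cox7a2, Cycs, Ndufa10, Ndufs5 and Uqcrb, were only on probe sets shared with other genes, and no value is given for them. Where a gene had several probe sets, the one with the highest mean over the 12 arrays stood for it. The 81 members were all measured, and 77 were above the background of the array in all 12 arrays. The other 4 (Cox6c-ps1, Cox7a1, Cox7b2 and Cox8b) were within the background in at least 1 array, and of these only Cox8b was so in all arrays of a group, which was group D.

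The respiratory chain lies in the inner mitochondrial membrane. Complex I takes electrons from NADH and complex II takes them from succinate, and both hand them to ubiquinone. Complex III passes them on to cytochrome c, and complex IV delivers them to oxygen. The proton gradient built by complexes I, III and IV drives ATP synthesis by complex V. Most subunits are encoded in the nucleus, and lymphocytes are known to raise respiration when they leave the resting state. Subunits encoded by mitochondrial DNA are not among the members.

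The animals were Wistar rats, and the nodes were taken at day 21, the day of weaning, with 1 array per animal and 3 animals in each of 4 groups. Pups of group A had dams on a 1% CLA diet in the last 2 weeks of gestation and through the 3 weeks of suckling, so that CLA reached them in the milk (5 weeks in all). In group B the dams had that diet in gestation only and the pups were given CLA by daily gavage while suckling (5 weeks), group C had the gavage without CLA in gestation (3 weeks), and group D had the standard diet and no CLA. The CLA was a mix of 80% c9,t11 and 20% t10,c12 isomers. The 3 animals were drawn at random from each group, and their litters are not given in the sources used here. Pups were kept in litters under 1 dam, so the 3 pups of a group may share a dam, and the errors and p-values measure the spread between pups and not between dams. Group A therefore differed from groups B and C in the route of CLA during suckling as well as in handling by gavage, and these cannot be told apart. From group C it differed also in CLA during gestation and in the total weeks of CLA. No gavage is described for group D, so for groups B and C against group D, CLA and handling by gavage cannot be told apart. Values are normalized log2 signals, so a difference of 1 is a 2-fold change, and since the tissue was measured in bulk, fewer cells of a type and less RNA per cell cannot be told apart.

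The deposited signals were not on 1 scale between arrays, with array medians of 27.6 to 32.9 for group A, 19.3 to 30.9 for B, 20.2 to 27 for C and 34.3 to 38.5 for D, and quantile normalization removed these differences. Of 11 lymphocyte markers 9 were measured, and none was within the background in all arrays of a group. Replicate 3 of group D (D3) stood apart over all probe sets: its mean correlation was 0.884 with group A, 0.931 with B, 0.930 with C and 0.896 with D1 and D2. Counts of calls against group D are therefore given with and without D3, and single genes in part. The summed signal of 7 smooth muscle markers was 1840 to 2060 for group A, 1040 to 1390 for B, 921 to 1170 for C and 1140 to 8180 for D. Actg2, the enteric smooth muscle actin, had a log2 signal of 11.41 in D1, 11.17 in D2 and 5.88 in D3.

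Group A differed from the gavage groups in most members. Compared with the mean of groups B and C, 50 of the 81 members were higher in group A (61.7%, against 31.6% of all genes) and 9 were lower (11.1%, against 16.9% of all genes), by limma at an adjusted p under 0.05. The median difference of the members was 0.50 on the log2 scale and that of all genes 0.32, whereas without scaling between arrays they were 1.12 and 0.73, and Ndufb3, Ndufv2, Uqcrh and Atp5f1a, lower after normalization, had positive differences. The higher members changed by up to 2.93-fold and the lower ones by up to 4.29-fold. The arrays of group A lay above all 6 arrays of groups B and C for 52 members (background over all genes 33.8%) and below them for 10 members (background 16.9%). Without D3, which changes only the normalization and the shared spread here, 55 members were higher and 11 lower (background 35.2% and 18.3%).

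Compared with group D, 22 members were higher in group A (27.2%, against 16.0% of all genes) and 10 were lower (12.3%, against 12.0% of all genes). The median difference was 0.25 for the members and 0.15 for all genes. Every member called higher or lower against group D was called in the same direction against groups B and C, except Sdhd, which was lower against group D only; the 2 comparisons share the arrays of group A. The arrays of group A lay above those of group D for 35 members (background 26.9%) and below them for 10 (background 15.9%). Without D3 the counts were 12 higher and 14 lower (background 14.6% and 13.4%), the median differences were 0.11 for the members and 0.08 for all genes, and all 10 lower calls were kept, while 10 of the 22 higher calls were lost (Ndufa12, Ndufa13, Ndufs6, Uqcr10, Cox4i1, Cox6a1, Cox6b1, Cox7c, Atp5mk and Atp5mpl). The differences of the lower members were then -1.92 for Uqcrc2, -1.77 for Ndufs1, -1.58 for Sdha and -1.09 for Atp5pb, and those of the higher ones that were kept ran from 0.38 for Ndufa7 to 0.68 for Cox6b2. The count of 22 came to 7 without A2 and 11 without A3, to 8 without a variance trend, to 2 in a fit of groups A and D only, and to 0 on the values as deposited. On those deposited values 1.84% of all genes were higher.

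**Figure D1:**
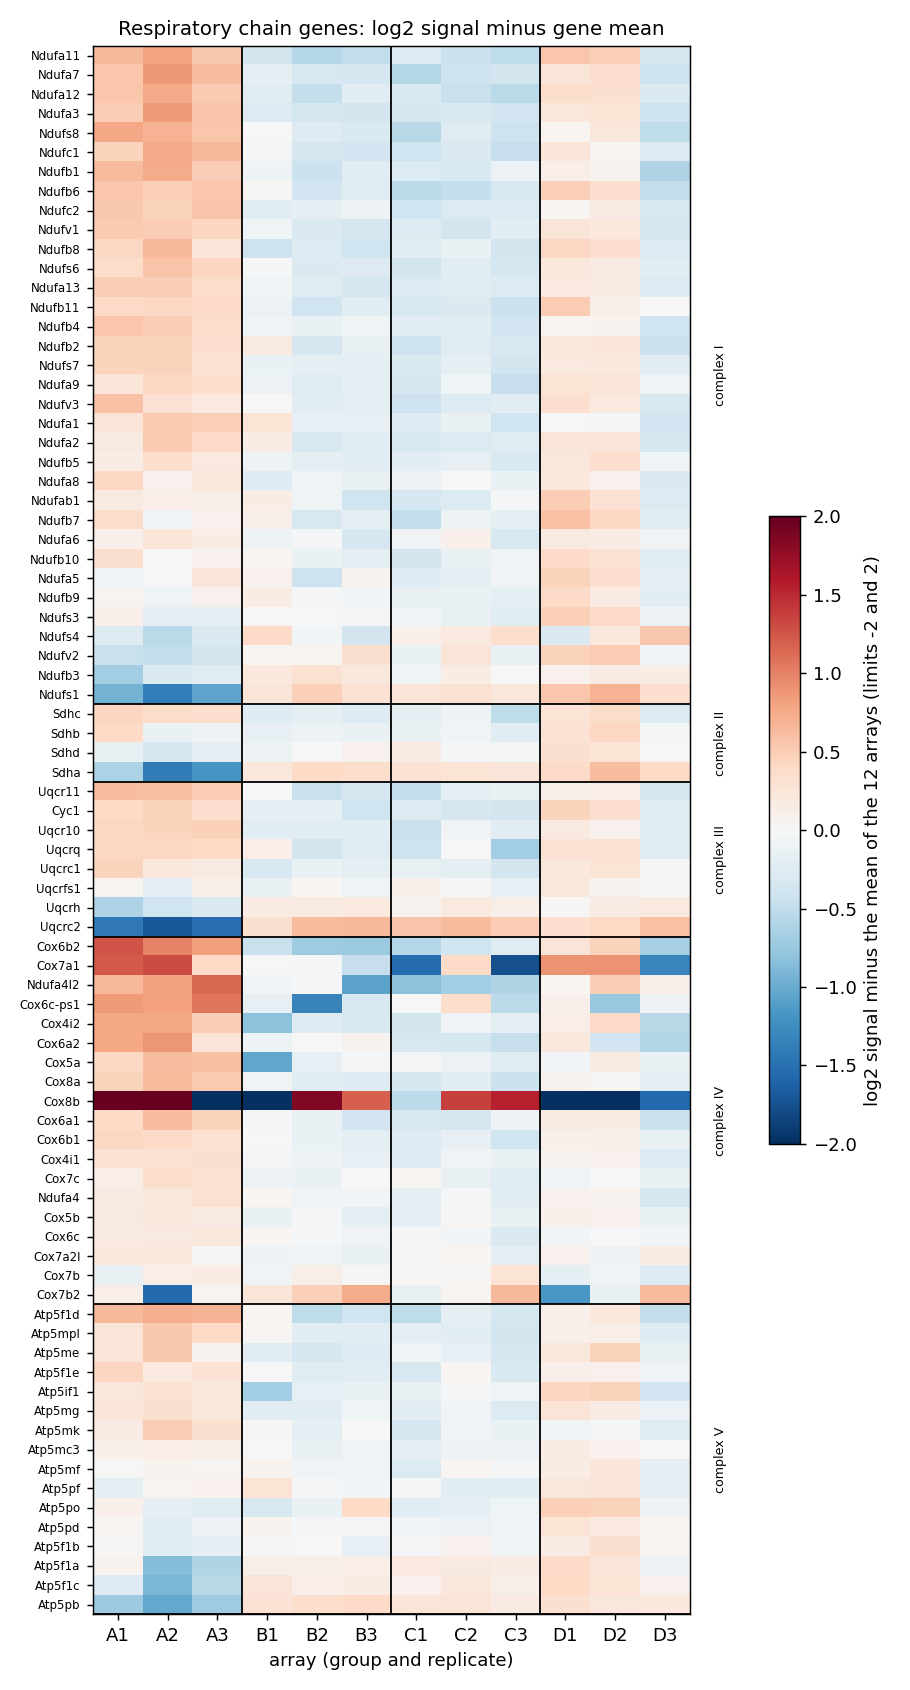
Normalized log2 signal of the 81 genes (rows, by complex and ordered by the difference between group A and groups B and C) in the 12 arrays (columns), each minus the mean of the gene over the arrays; red is higher and blue lower, with colours limited at -2 and 2. In the arrays of group A and in D1 and D2 most rows are red, and in groups B and C and in D3 most are blue, with a few rows such as Uqcrc2, Ndufs1, Sdha and Atp5pb blue in group A.

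The promoters of the genes were compared by sequence, because mammalian respiratory chain genes are known to share binding motifs for NRF-1, for ETS factors such as GABP, and for YY1. Windows of 250 bases before to 50 after the annotated start were found for 72 of the 81 members in RefSeq (GRCr8). The NRF-1 core (GCGCA and GCGC with any base between them) was present on either strand in 13 of them (18.1%, against 4.71% of the 27457 promoters of all genes), the ETS core CCGGAAG in 20 (27.8%, against 9.22%) and the YY1 core AAGATGGCG in 10 (13.9%, against 1.93%). The median GC content was 56.0% in the members and 52.3% in all promoters. Among promoters of members lower in group A than in groups B and C, 2 of 9 had the NRF-1 core, 4 the ETS core and 0 the YY1 core, and among those of higher members 9 of 43 had the NRF-1 core, 11 the ETS core and 6 the YY1 core. Of the 20 promoters of members not called, 2 had the NRF-1 core, 5 the ETS core and 4 the YY1 core. A tie between motif and direction was not tested. A match is only a match of letters, and binding was not measured here. Shown are the 120 bases before the start of the 2 core proteins of complex III, which moved in opposite directions (Uqcrc2 lower and Uqcrc1 higher in group A than in groups B and C), of Sdha, which was lower and had the most NRF-1 matches, and of Ndufa11, a higher member with a pair of overlapping ones. Capitals mark the NRF-1 core in Sdha and Ndufa11 and, as its reverse complement, in Uqcrc1. In Uqcrc2 they mark the ETS core, here as its reverse complement CTTCCGG.
Uqcrc2: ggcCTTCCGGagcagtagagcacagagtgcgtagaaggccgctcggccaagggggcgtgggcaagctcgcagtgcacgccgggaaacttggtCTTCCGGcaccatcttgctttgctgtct
Uqcrc1: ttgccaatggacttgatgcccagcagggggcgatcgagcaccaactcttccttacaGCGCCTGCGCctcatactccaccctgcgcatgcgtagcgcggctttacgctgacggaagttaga
Sdha: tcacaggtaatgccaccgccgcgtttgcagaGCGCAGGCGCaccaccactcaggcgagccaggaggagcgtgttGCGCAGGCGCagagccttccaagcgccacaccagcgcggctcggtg
Ndufa11: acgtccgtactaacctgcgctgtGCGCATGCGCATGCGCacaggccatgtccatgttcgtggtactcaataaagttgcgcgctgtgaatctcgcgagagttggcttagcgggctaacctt
All 4 stretches are on the plus strand of GRCr8, at chr1:184599120-184599239 for Uqcrc2, chr8:118468103-118468222 for Uqcrc1, chr1:30764433-30764552 for Sdha and chr9:1637494-1637613 for Ndufa11. A further NRF-1 match in Sdha and a YY1 match in Uqcrc1 run across the start and are not shown.

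In complex I, 23 of 34 members were higher in group A than in groups B and C (67.6%, against 31.6% of all genes) and 3 were lower (8.82%, against 16.9%). Against group D, 11 were higher (32.4%, against 16.0%) and 3 lower (8.82%, against 12.0%). Without D3, 8 were higher (23.5%, against 14.6%) and 4 lower (11.8%, against 13.4%). The median difference was 0.60 against groups B and C and 0.30 against group D, or 0.10 against group D without D3. The core subunits, which carry the flavin and iron-sulfur clusters and bind ubiquinone, went both ways: of 6 measured, Ndufs7, Ndufs8 and Ndufv1 were higher and Ndufs1 and Ndufv2 lower in group A than in groups B and C. Of the 28 accessory subunits, which surround the core, 20 were higher and only Ndufb3 was lower.

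Ndufs1 encodes the largest subunit of the peripheral arm, which holds several iron-sulfur clusters. Its log2 signal was 7.03, 6.59 and 6.93 in group A, 8.22, 8.45 and 8.29 in group B, 8.23, 8.28 and 8.20 in group C, with 8.54, 8.68 and 8.31 in group D. The arrays of group A lay below all others by more than 1. The difference was -1.43 ± 0.12 (SE) against groups B and C (adjusted p = 3.28e-06, limma) and -1.66 ± 0.14 against group D (adjusted p = 9.41e-06), a 3.17-fold lower signal. Ndufv2, an iron-sulfur subunit next to the NADH site, averaged 8.87 ± 0.0665 in group A, 9.45 ± 0.159 in group B, 9.31 ± 0.226 in group C and 9.61 ± 0.314 in group D (SD, n = 3 each). It was lower by limma against group D (difference -0.74 ± 0.16, adjusted p = 0.00558) and against groups B and C (-0.51 ± 0.14, adjusted p = 0.0108, but 0.14 without scaling between arrays).

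Ndufv1, the partner of Ndufv2, binds NADH and the flavin. It averaged 9.68 ± 0.0475 in group A, 8.96 ± 0.137 in group B, 8.92 ± 0.0847 in group C and 9.25 ± 0.329 in group D. Within the same module Ndufv1 was thus higher in group A than in groups B and C (0.74 ± 0.12, adjusted p = 0.000501 by limma) where Ndufv2 and Ndufs1 were lower; against group D its difference of 0.43 had an adjusted p of 0.0505. Ndufs8, an iron-sulfur subunit near the ubiquinone site, had 9.01, 8.93 and 8.79 in group A, 8.25, 7.98 and 7.94 in group B, 7.68, 8.0 and 7.82 in group C, with 8.28, 8.47 and 7.73 in group D. It was higher in group A than in groups B and C (0.96 ± 0.15, limma, adjusted p = 0.000297) and than in group D (0.75 ± 0.17, adjusted p = 0.00894). Its lowest value in group D was that of D3, and without D3 the difference was 0.53 (adjusted p = 0.0118).

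Among the accessory subunits the largest rises against groups B and C were those of Ndufa11 and Ndufa7. Ndufa11, in the membrane arm, had 9.43, 9.57 and 9.33 in group A, 8.42, 8.22 and 8.29 in group B, 8.51, 8.36 and 8.28 in group C, with 9.34, 9.26 and 8.45 in group D. The values of group A lay beside those of D1 and D2, and D3 lay within the range of the gavage groups. The difference was 1.10 ± 0.17 against groups B and C (2.14-fold, adjusted p = 0.000231 by limma) and 0.43 ± 0.19 against group D (adjusted p = 0.143), or 0.14 without D3. Ndufa7 was higher than in groups B and C by 1.05 ± 0.15 (adjusted p = 0.000173) and than in group D by 0.62 ± 0.17 (adjusted p = 0.0248; 0.52 and 0.106 without A2, 0.65 and 0.0511 without A3). Another, dimmer probe set for Ndufa7 also rose against groups B and C (0.88 ± 0.29, adjusted p = 0.0306 by limma). Against group D that probe set was not called (0.70 ± 0.34, adjusted p = 0.173). Ndufa12, Ndufa3 and Ndufb1 were 0.98, 0.97 and 0.87 higher than in groups B and C. Of the 3 members of complex I with the brightest probe sets, Ndufa1 (0.56) and Ndufb4 (0.65) were higher than in groups B and C, while Ndufb9 averaged 10.07 ± 0.0893 in group A, 10.07 ± 0.112 in group B, 9.90 ± 0.0242 in group C and 10.16 ± 0.298 in group D. Ndufa9 was called higher from its brightest probe set, but its other probe set, within the background in 4 arrays, gave -0.26 (adjusted p = 0.788).

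**Figure D2:**
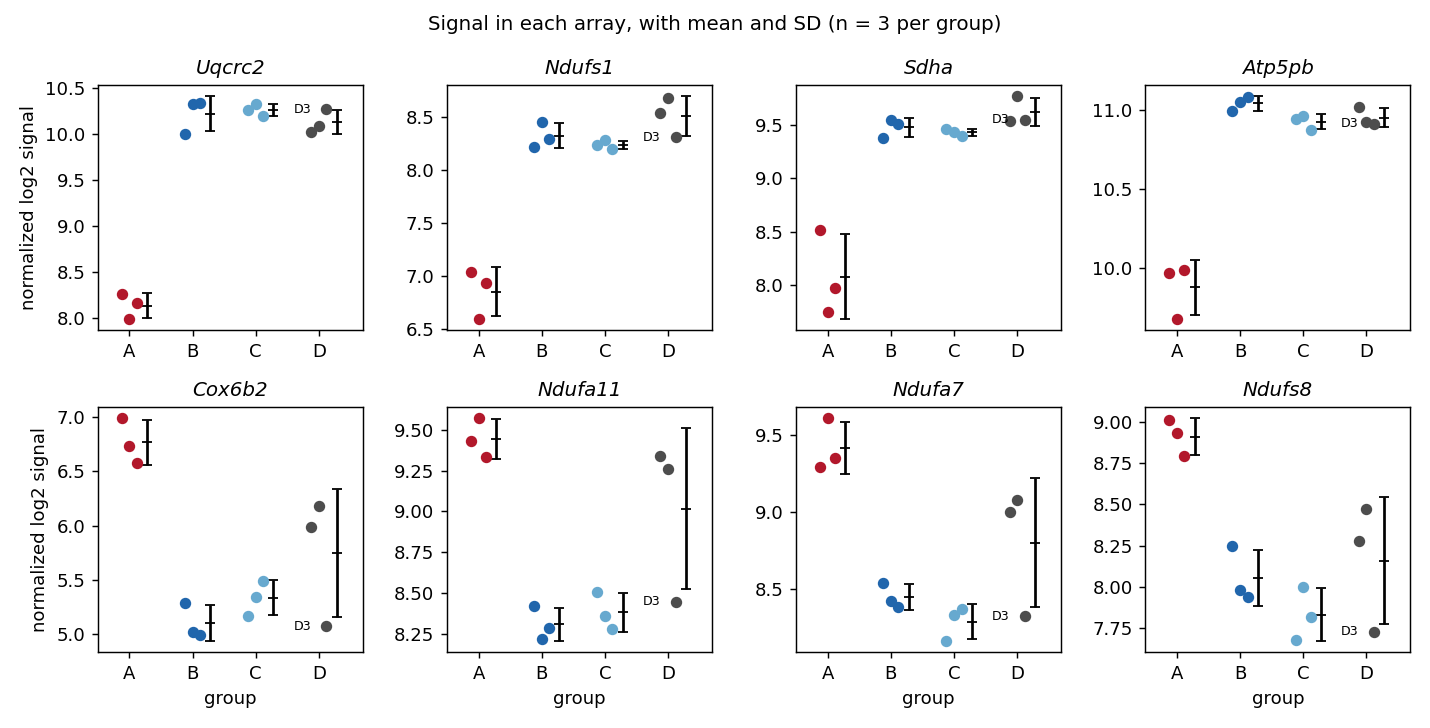
Normalized log2 signal (vertical axis, scaled separately for each gene) of 8 genes in each array, by group, with D3 labelled; bars are the mean and SD of 3 arrays. Uqcrc2, Ndufs1, Sdha and Atp5pb lie lower in group A than in all other arrays, and Cox6b2, Ndufa11, Ndufa7 and Ndufs8 lie higher in group A than in groups B and C, with D3 among or below the arrays of groups B and C.

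Complex II, which also serves the citric acid cycle as succinate dehydrogenase, has 4 subunits. Sdha, the flavoprotein that oxidises succinate, had 8.52, 7.75 and 7.97 in group A, 9.38, 9.55 and 9.51 in group B, 9.46, 9.43 and 9.40 in group C, with 9.54, 9.77 and 9.55 in group D. All 3 arrays of group A were below the other 9. The difference was -1.38 ± 0.14 against groups B and C (adjusted p = 1.29e-05, limma) and -1.54 ± 0.16 against group D (adjusted p = 5.19e-05; 2.90-fold lower). Its partner Sdhb, the iron-sulfur subunit, averaged 9.41 ± 0.297 in group A, 9.22 ± 0.0324 in group B, 9.22 ± 0.0731 in group C and 9.59 ± 0.235 in group D and passed neither test of group A (adjusted p = 0.291 against groups B and C and 0.461 against group D). The membrane anchors parted: Sdhc was 0.62 ± 0.13 higher than in groups B and C (limma, adjusted p = 0.00264), and Sdhd was lower than in group D (difference -0.43 ± 0.11, adjusted p = 0.0173), a call lost without A2 (-0.36), D1 (-0.36) or D2 (-0.39). The other probe set for Sdhd gave -0.65 ± 0.15 against group D (adjusted p = 0.00905) and -0.48 ± 0.13 against groups B and C (adjusted p = 0.0113).

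In complex III, 5 of 8 members were higher and 2 lower in group A than in groups B and C (62.5% and 25%, against 31.6% and 16.9% of all genes), with a median difference of 0.59. Uqcrc2 had the largest fall of all members. This core protein had 8.26, 7.99 and 8.16 in group A, 10.00, 10.32 and 10.34 in group B, 10.26, 10.32 and 10.19 in group C, with 10.02, 10.09 and 10.27 in group D. The other 9 arrays lay close together, all above group A. The difference was -2.10 ± 0.10 against groups B and C (4.29-fold lower, adjusted p = 1.33e-07 by limma) and -1.99 ± 0.12 against group D (3.97-fold lower, adjusted p = 1.42e-06). Another probe set for Uqcrc2 gave -2.31 ± 0.22 (adjusted p = 9.46e-06) and -2.27 ± 0.26 (adjusted p = 9.32e-05). Uqcrc1, which pairs with it in the complex, had 10.07, 9.83 and 9.81 in group A, 9.32, 9.49 and 9.45 in group B, 9.48, 9.43 and 9.26 in group C, with 9.84, 9.90 and 9.60 in group D. It was 0.50 ± 0.10 higher than in groups B and C (limma, adjusted p = 0.00167), and its difference from group D was 0.12 ± 0.12 (adjusted p = 0.533).

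Of the other subunits of complex III, Cyc1 (cytochrome c1) was 0.68 ± 0.13 higher in group A than in groups B and C (adjusted p = 0.00128, limma). The small subunits Uqcr10, Uqcr11 and Uqcrq were higher by 0.68, 0.85 and 0.68. Uqcrh, the hinge protein between cytochromes c1 and c, was lower than in groups B and C by limma (-0.59 ± 0.087, adjusted p = 0.00021), with a positive difference of 0.14 without scaling, and lower than in group D (-0.57 ± 0.10, adjusted p = 0.00182). Uqcrfs1, the Rieske iron-sulfur protein, averaged 10.34 ± 0.155 in group A, 10.30 ± 0.0841 in group B, 10.32 ± 0.129 in group C and 10.44 ± 0.129 in group D.

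In complex IV, 14 of 19 members were higher in group A than in groups B and C (73.7%, against 31.6% of all genes). None was lower by limma at an adjusted or unadjusted p under 0.05 (16.9% of all genes at the adjusted p). Against group D, 6 were higher (31.6%, against 16.0%) and none lower by either (12.0% of all genes at the adjusted p). Without D3, 2 were higher (10.5%, against 14.6%) and none lower (13.4% of all genes). The median difference from group D was 0.53, and 0.29 without D3. Of the 10 subunits found in most tissues, 9 were higher than in groups B and C, by 0.25 to 0.81, and the exception was Cox7b (-0.02 ± 0.099). Cox8a had 10.91, 11.11 and 10.99 in group A, 10.40, 10.26 and 10.21 in group B, 10.14, 10.26 and 10.05 in group C, with 10.54, 10.50 and 10.30 in group D. It was above all other arrays in group A, by 0.78 ± 0.091 against groups B and C (adjusted p = 3.84e-05) and 0.55 ± 0.11 against group D (adjusted p = 0.00273). Cox4i1, the common form of the regulatory subunit that binds ATP, averaged 11.70 ± 0.0113 in group A, 11.30 ± 0.0634 in group B, 11.24 ± 0.0916 in group C and 11.36 ± 0.205 in group D (difference from groups B and C 0.43 ± 0.095, adjusted p = 0.00333). Cox6c was 0.25 ± 0.082 higher than in groups B and C (adjusted p = 0.0271 by limma). That call was lost without A2, A3, B2, B3 or C3 (adjusted p up to 0.0847) and without a variance trend (adjusted p = 0.112).

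Several subunits of complex IV have forms restricted to certain tissues. Cox6b2, known from testis, rose most: it had 6.99, 6.73 and 6.58 in group A, 5.29, 5.02 and 4.99 in group B, 5.17, 5.34 and 5.49 in group C, with 5.99, 6.18 and 5.07 in group D. Group A was above every other array, by 1.55 ± 0.23 against groups B and C (2.93-fold, adjusted p = 0.000219 by limma) and 1.02 ± 0.27 against group D (2.03-fold, adjusted p = 0.0169; 0.68 and 0.0248 without D3, 0.90 and 0.0687 without A1, 1.04 and 0.0514 without A2). Its common paralog Cox6b1 was higher by 0.56 ± 0.089 (adjusted p = 0.000336) against groups B and C. Cox4i2, the form known from lung, was higher by 1.02 ± 0.24 (adjusted p = 0.00415) and Cox6a2, the form of heart and muscle, by 0.83 ± 0.28 (adjusted p = 0.032), beside 0.43 for Cox4i1 and 0.70 for Cox6a1. Ndufa4l2, a paralog of the complex IV subunit Ndufa4 known to be induced by hypoxia, was higher by 1.41 ± 0.28 (adjusted p = 0.00142), and Ndufa4 by 0.32 ± 0.10 (adjusted p = 0.0251). The call of Cox6a2 was lost without A1, A2, B1, B2 or C3 (adjusted p up to 0.131) and that of Ndufa4 without A2, A3, B2 or C3 (adjusted p up to 0.10). The pseudogene Cox6c-ps1 was 1.25 ± 0.35 higher (adjusted p = 0.0128; 1.17 and 0.0547 without A3) on a dim probe set, which could also take up transcript of Cox6c. Cox7a1, Cox7b2 and Cox8b were within the background in at least 1 array and were not called with all arrays. Cox7a1, a form of heart and muscle, had a difference of 1.55 from groups B and C (adjusted p = 0.063), which was called without D3 (1.55, adjusted p = 0.0242). Cox8b was at the floor of 0 in A3, B1, D1 and D2, so no fold is given for it. Cox7a2l, a factor for joining complexes III and IV, averaged 10.81 ± 0.150 in group A, 10.58 ± 0.0237 in group B, 10.63 ± 0.126 in group C and 10.73 ± 0.128 in group D.

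In complex V, 7 of 16 members were higher (43.8%, against 31.6% of all genes) and 3 lower (18.8%, against 16.9%) in group A than in groups B and C. Against group D, 3 were higher and 3 lower (18.8% each, against 16.0% and 12.0% of all genes). Without D3, 1 was higher and 6 lower (6.25% and 37.5%, against 14.6% and 13.4%), with a median difference of -0.17. The catalytic F1 part split. Atp5f1a (alpha) had 10.36, 9.43 and 9.70 in group A, 10.41, 10.41 and 10.43 in group B, 10.49, 10.47 and 10.44 in group C, with 10.68, 10.55 and 10.19 in group D. It was lower than in groups B and C by limma (-0.61 ± 0.17, adjusted p = 0.0111, but 0.09 without scaling) and than in group D (-0.64 ± 0.19, adjusted p = 0.0319), although A1 lay above D3. Neither call held without A2 (-0.41, adjusted p = 0.0805, and -0.44, adjusted p = 0.142) or without A3 (-0.55, adjusted p = 0.0545, and -0.58, adjusted p = 0.103), and that against group D was lost also without D1 or D2. Atp5f1c (gamma, the shaft of the rotor) had differences of -0.74 ± 0.13 (adjusted p = 0.000535; -0.02 without scaling) and -0.83 ± 0.14 (adjusted p = 0.00159). Atp5f1d (delta) was higher, by 1.00 ± 0.16 (adjusted p = 0.000327) and 0.73 ± 0.18 (adjusted p = 0.013), and Atp5f1e (epsilon) by 0.48 ± 0.10 (adjusted p = 0.00296) against groups B and C. Atp5f1b (beta) averaged 10.80 ± 0.135 in group A, 10.88 ± 0.0994 in group B, 10.93 ± 0.0804 in group C and 11.12 ± 0.128 in group D, with an adjusted p of 0.425 against groups B and C and 0.0559 against group D.

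Of the 4 measured subunits of the peripheral stalk, which holds F1 in place, 3 were lower than in group D by limma without D3. With all arrays only Atp5pb (subunit b) passed the test. It had 9.97, 9.68 and 9.99 in group A, 10.99, 11.05 and 11.08 in group B, 10.94, 10.96 and 10.87 in group C, with 11.02, 10.92 and 10.91 in group D. The 9 arrays outside group A lay close together and above it. The difference was -1.10 ± 0.086 against groups B and C (adjusted p = 2.03e-06, limma; -0.36 and 0.258 without scaling) and -1.07 ± 0.10 against group D (adjusted p = 2.17e-05), a 2.10-fold lower signal. In the membrane part 5 of 6 members were higher than in groups B and C, by 0.22 (Atp5mc3, a gene for the c-ring, whose call was lost without any of 7 single arrays, with an adjusted p up to 0.11) to 0.60 (Atp5mpl). Atp5if1, which inhibits ATP hydrolysis, had a difference of 0.45 ± 0.18 (adjusted p = 0.0634).

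**Figure D3:**
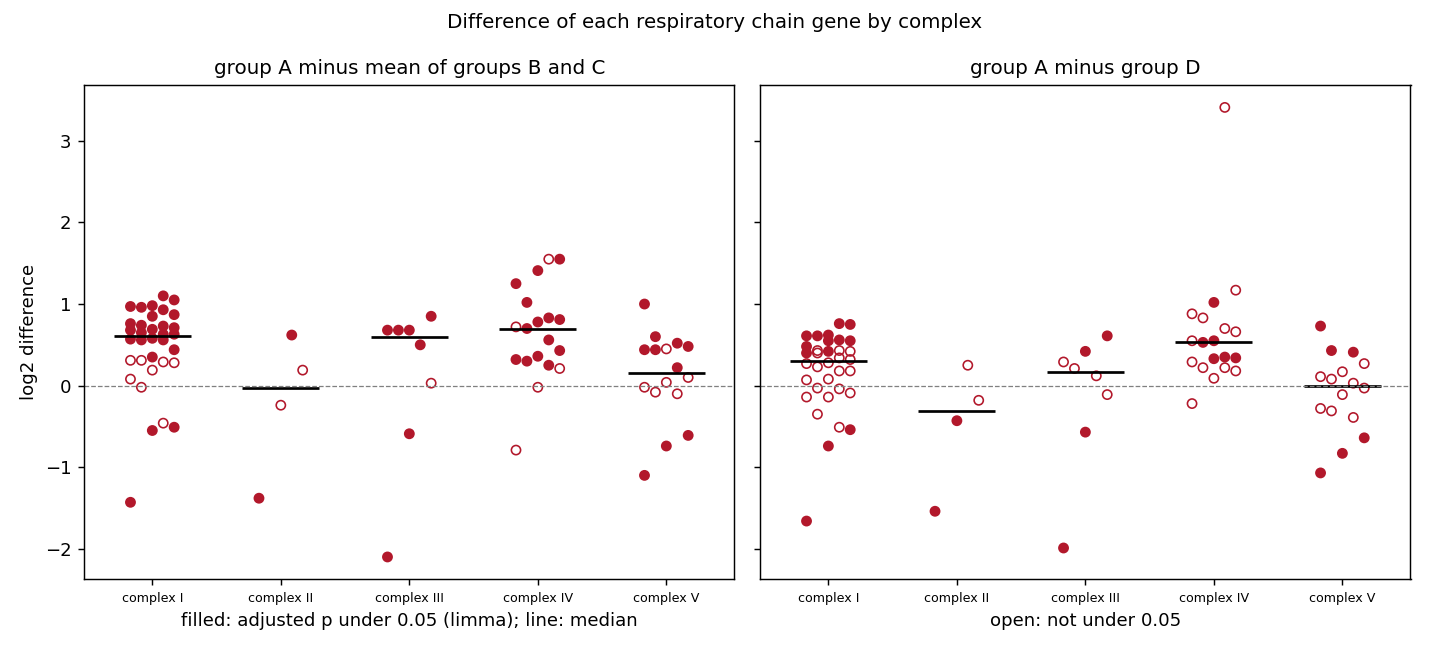
Log2 difference of each gene (points, filled at an adjusted p under 0.05 by limma; black line, median) by complex, for group A minus the mean of groups B and C (left) and group A minus group D (right). Medians against groups B and C are 0.60, -0.02, 0.59, 0.70 and 0.16 for complexes I to V, and against group D 0.30, -0.30, 0.16, 0.53 and 0.00; complex IV has no lower call, and its highest open point on the right is Cox8b, which lay within the background in group D. Without D3 the medians against group D are 0.10, -0.42, 0.01, 0.29 and -0.17. Without scaling between arrays, Ndufb3, Ndufv2, Uqcrh and Atp5f1a have positive differences on the left.

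For the gavage groups the comparison with group D turned on D3. With all arrays no member was called by limma in group B (background 0.0141% lower and 0.00703% higher) or in group C (0.0352% and 0.00703%). At an unadjusted p under 0.05, 15 members were lower and none higher in group B (10.5% and 6.47% of all genes), and 33 were lower and 1 higher in group C (12.2% and 7.42% of all genes). The 3 arrays lay below those of group D for 10 members in group B (background 10.3%) and for 16 in group C (10.7%), and above them for 2 members each (background 5.32% and 5.86%). The median difference from group D was -0.21 for group B, with -0.11 for all genes, and -0.27 for group C, with -0.12 for all genes. Without D3, 26 members were lower by limma in group B (32.1%, against 12.8% of all genes) and 45 in group C (55.6%, against 15.0%). None was higher at an adjusted or unadjusted p under 0.05 (7.15% and 8.03% of all genes at the adjusted p). All 26 of group B were among the 45 of group C; both comparisons share D1 and D2. The median differences were then -0.35 and -0.41, against -0.19 and -0.20 for all genes. Group D is left with 2 arrays in this fit, and their spread is taken from all groups.

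D3 was the lowest array of group D for 71 of the 81 members. The median of the members, each centred on its mean, was 0.26 to 0.36 for group A, -0.18 to -0.03 for B and -0.25 to -0.13 for C, against 0.22, 0.21 and -0.21 in D1, D2 and D3. The median of all genes was 0.19 to 0.27 for group A, -0.10 to -0.04 for B and -0.10 to -0.06 for C. In D1, D2 and D3 it was 0.13, 0.09 and -0.08. D3 thus lay with the gavage groups and apart from D1 and D2, for the members and for all genes. For 66 members D3 was below D1 and D2 and no higher than the highest array of groups B and C. The counts of 71 and 66 were not set against all genes. Complex I held 17 of the 26 members lower in both gavage groups without D3 (50% of its 34 members). Complex III held 3 (37.5% of 8), complex V 3 (18.8% of 16), complex II 2 (50% of 4) and complex IV 1 (5.26% of 19). These 26 are the members lower in group B, where 12.8% of all genes were lower. Ndufa11 had the smallest adjusted p of both: its difference was -0.99 in group B (adjusted p = 9.81e-05) and -0.92 in group C (adjusted p = 0.000139). Cyc1 was -0.65 (adjusted p = 0.000677) and -0.72 (adjusted p = 0.000309), and Atp5if1 -0.77 (adjusted p = 0.00327) and -0.52 (adjusted p = 0.0247). Of the genes that fell in group A, Uqcrc2, Atp5pb and Sdha were not called in the gavage groups by limma without D3. Uqcrc2 differed by 0.17 in group B and 0.20 in group C (adjusted p = 0.394 and 0.286), Atp5pb by 0.07 and -0.04 (0.719 and 0.824), and Sdha by -0.17 and -0.22 (0.575 and 0.436). The 6 measured core subunits of complex I, which include Ndufs1 and Ndufv2, were without D3 all lower in both groups at an unadjusted p under 0.05. The share of all genes at that unadjusted p was not counted in this fit. The differences of the core subunits ran from -0.48 to -0.29 in group B and from -0.58 to -0.38 in group C. In group B 3 were called (50%, against 12.8% of all genes) and in group C 5 (83.3%, against 15.0%).

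**Figure D4:**
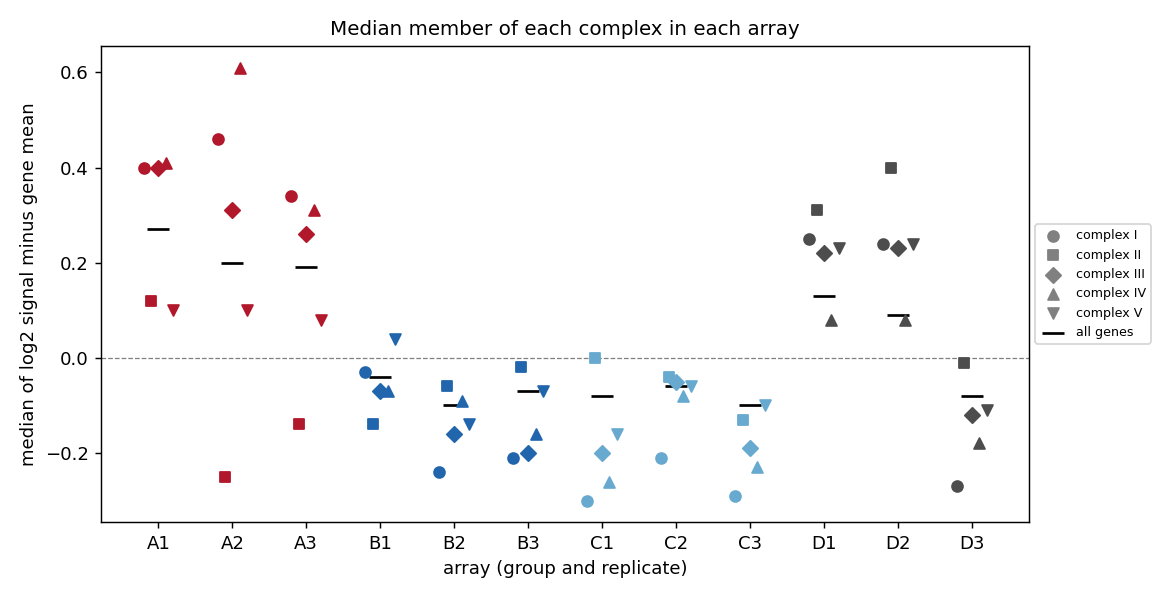
Median over the genes of each complex (symbols) of the log2 signal minus the mean of the gene, in each array, with the median of all genes as a dash. Over all members the medians are 0.26 to 0.36 in group A and -0.25 to -0.03 in groups B and C. D1 (0.22) and D2 (0.21) are apart from D3 (-0.21). The dashes of all genes have the same order, with 0.13 in D1, 0.09 in D2 and -0.08 in D3.

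**Figure D5:**
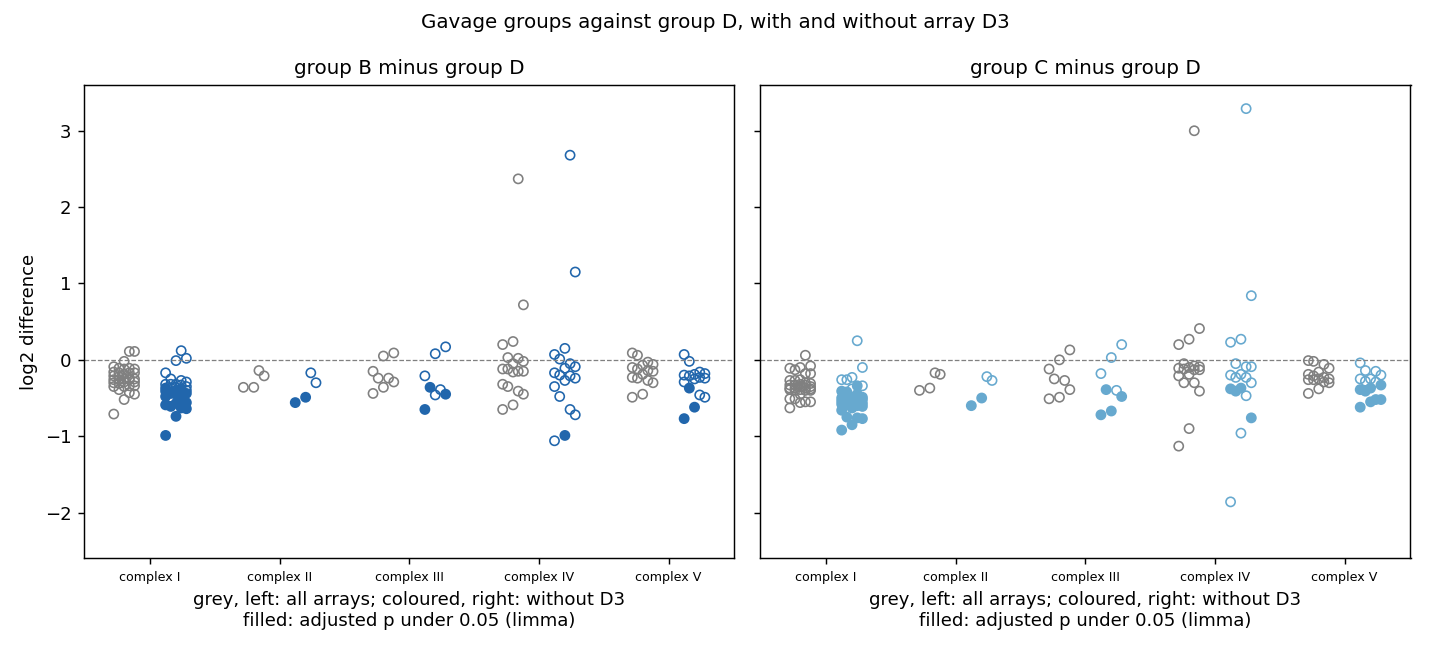
Log2 difference of each gene by complex for group B minus group D (left) and group C minus group D (right), with all arrays (grey) and without D3 (coloured); filled points have an adjusted p under 0.05 by limma. No grey point is filled, whereas 26 coloured points in group B and 45 in group C are filled, all below 0.

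Groups B and C, which differed in CLA during gestation, were not separated. No member was called by limma (background 0.00% in both directions at the adjusted p). None had an unadjusted p under 0.05, for which the share of all genes was not counted. The median difference of group B minus group C was 0.07, against 0.00 for all genes, with a range from -0.63 to 0.81.

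Other genes for making and feeding the respiratory chain were counted in the same way. Of 44 measured assembly factors (of 50 listed), 12 were higher (27.3%, against 31.6% of all genes) and 8 lower (18.2%, against 16.9%) than in groups B and C. Against group D, 5 were higher (11.4%, against 16.0%) and 6 lower (13.6%, against 12.0%), so that in both comparisons the shares lay near those of all genes. Leaving out D3 gave 5 higher (11.4%, against 14.6%) and 7 lower (15.9%, against 13.4%). Ndufaf8, needed for complex I assembly, was 1.05 ± 0.17 higher than in groups B and C, and Lrpprc, which stabilises mitochondrial mRNA, had a difference of -1.04 ± 0.14. Of 28 measured genes of protein import and inner membrane organisation (of 31), 12 were higher (42.9%) and 8 lower (28.6%) than in groups B and C, against 31.6% and 16.9% of all genes. Tomm40, the pore of the outer membrane, was higher by 1.13 ± 0.11, whereas Hspa9, the import motor chaperone, and Immt, the scaffold of the cristae junction, had differences of -1.50 ± 0.10 and -1.24 ± 0.11. Against group D, 7 of these genes were higher (25.0%, against 16.0% of all genes) and 9 lower (32.1%, against 12.0%). Leaving out D3 gave 4 higher (14.3%, against 14.6%) and 8 lower (28.6%, against 13.4%).

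Of 21 measured genes of the citric acid cycle and pyruvate dehydrogenase (of 24), 8 were higher (38.1%, against 31.6% of all genes) and 6 lower (28.6%, against 16.9%) in group A than in groups B and C. Against group D, 3 were higher (14.3%, against 16.0%) and 7 lower (33.3%, against 12.0%), with the same counts without D3 (background 14.6% and 13.4%). Dld, the dihydrolipoamide dehydrogenase shared by several of these enzymes, fell most, with differences of -2.13 ± 0.13 and -1.82 ± 0.15. Sucla2, a subunit of succinate-CoA ligase, had -1.56 ± 0.12 and -1.43 ± 0.13, and Pdha1, the alpha subunit of pyruvate dehydrogenase, -1.40 ± 0.14 and -1.35 ± 0.16. Cs, the citrate synthase, was higher by 0.47 ± 0.073 and 0.32 ± 0.084, and Pdk2, a kinase that inhibits pyruvate dehydrogenase, by 1.31 ± 0.22 and 0.96 ± 0.25. The list median was 0.00 against groups B and C and -0.14 against group D, or -0.22 against group D without D3.

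All 21 listed regulators of mitochondrial biogenesis and mitochondrial DNA were measured, and 6 were higher (28.6%, against 31.6% of all genes) and 8 lower (38.1%, against 16.9%) in group A than in groups B and C. Nrf1, whose motif is shown above, was higher by 0.85 ± 0.16 and by 0.67 ± 0.19 against group D, and Esrra, a nuclear receptor for respiratory genes, by 1.06 ± 0.24 and 1.22 ± 0.27. Gabpa, the DNA-binding chain of the ETS factor GABP, had -0.80 ± 0.17 against groups B and C, and Tfam, which packages mitochondrial DNA, -0.38 ± 0.11. Polrmt, the mitochondrial RNA polymerase, was higher by 0.87 ± 0.19, while its cofactor Tfb2m had -1.62 ± 0.21. Against group D, 3 of the regulators were higher (14.3%, against 16.0% of all genes) and 5 lower (23.8%, against 12.0%), with the same counts without D3 (background 14.6% and 13.4%).

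Signs of RNA quality and of other cells also differed between the groups. The ratio of 3′ to 5′ signal of the hexokinase control was 2.84 to 4.96 for group A, 1.62 to 3.24 for B, 1.82 to 2.62 for C and 1.84 to 2.53 for D, and that of GAPDH was 1.21 to 1.53 for group A, 1.10 to 1.12 for B, 1.10 to 1.28 for C and 1.06 to 1.22 for D. The hexokinase range of group A overlapped that of B, and its GAPDH range overlapped those of C and D. The highest value of both ratios was that of A2 (4.96 and 1.53). The beta-actin ratio overlapped between all groups, at 1.37 to 1.79 for group A, 1.44 to 1.79 for B, 1.60 to 1.74 for C and 1.30 to 1.91 for D. The summed signal of 5 neutrophil markers was 328 to 476 for group A, 89.5 to 122 for B, 99.5 to 251 for C and 85.2 to 104 for D, and 3 of the 5 were higher in group A than in groups B and C. The sum of 4 macrophage markers was 1200 to 1350 for group A, 662 to 824 for B, 628 to 674 for C and 534 to 1180 for D. The 5 markers of enteric neurons and glia summed to 68.6 to 101 for group A, 86.7 to 117 for B, 66.6 to 109 for C and 415 to 715 for D, the 5 of mesothelium to 305 to 337 for group A, 237 to 292 for B, 199 to 266 for C and 496 to 889 for D, and the 5 of gut epithelium to 59.7 to 109 for group A, 38 to 55.4 for B, 58.5 to 69.7 for C and 110 to 327 for D. These 3 sums were higher in every array of group D, D3 included, than in all other arrays. Of the 5 gut epithelium markers, 1 was within the background in all arrays of group A, 3 in B, 2 in C and 0 in D. The 9 lymphocyte markers summed to 12000 to 13200 for group A, 13300 to 13800 for B, 13200 to 14100 for C and 11500 to 13500 for D. Against groups B and C, 3 of them were lower in group A (Ptprc -1.67, Ms4a1 -0.83 and Cd8a -0.48), 1 was higher (Cd3e 0.43) and 5 were not called, with a median of -0.17. The part of RNA quality and of cell composition in the differences of the respiratory chain genes was not tested.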

How the data were processed

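Mesenteric lymph node RNA of 12 rat pups (4 groups of 3) was hybridized to Affymetrix whole-genome rat arrays. The deposited values, made by the authors with MAS5, are signal intensities on a linear scale, 1 per probe set and array, not scaled between arrays.

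The 30 zeros took the smallest positive value, and quantile normalization was applied to the log2 values of all 31099 probe sets, with a floor at an intensity of 1. After removal of 57 control probe sets, 31042 were tested with limma 3.58.1 in R 4.3.3 (1 mean per group, trended empirical Bayes, two-sided, Benjamini-Hochberg over all probe sets within a comparison). A call needed an adjusted p under 0.05. Of the probe sets, 20826 carry 1 symbol, 436 several and 9780 none in the platform annotation. As array background served the 95th percentile over 27 spike probe sets without added transcript. Titles share replicate numbers. Correlations between arrays of the same number were small (from -0.02 to 0.08), although 9 arrays correlated best with their own number. Samples were not paired in the main fit, and the replicate number served as a block in an alternative. The number of arrays limits the precision. The fit was tested on simulated data. Promoter windows came from RefSeq (GRCr8) and were searched for exact matches on both strands.

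Members and gene lists were chosen with earlier results of these data known. The genes named were, in each comparison, the called members with the 6 largest falls and 6 largest rises, the 3 brightest of each complex, the paralog pairs and the succinate dehydrogenase genes; other members and list genes were added after their values were seen. Alternatives were no scaling, centring at the 75th percentile, a higher floor (32), removal of the 40% dimmest probe sets, no variance trend, only the groups compared, 1 probe set per gene, the second brightest probe set, the replicate number as a block, and leaving out each array.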

Additional observations from a re-analysis of the deposited data

Results flagged for a closer look

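Group A differed from the gavage groups B and C under the same contrast with group D in 9 members that were lower and 50 that were higher. The test was that of the difference itself (group A against the mean of B and C, limma, adjusted p under 0.05). The lower members were 11.1%, against 16.9% of all genes, and the higher ones 61.7%, against 31.6%. The members with the largest differences were named. The lower ones were Uqcrc2 (-2.10), Ndufs1 (-1.43), Sdha (-1.38), Atp5pb (-1.10), Atp5f1c (-0.74) and Atp5f1a (-0.61; 0.09 without scaling between arrays). The higher ones were Cox6b2 (1.55), Ndufa4l2 (1.41), Cox6c-ps1 (1.25), Ndufa11 (1.10), Ndufa7 (1.05) and Cox4i2 (1.02). With 3 arrays in each group, no test for an outlying sample was run on single genes.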

How the results depend on the processing

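In the comparison of group A with groups B and C, 43 of 59 member calls kept their direction and stayed past the threshold under every alternative run, among them Uqcrc2, Ndufs1, Sdha and Cox6b2. In that with group D only 4 of 32 did: Uqcrc2, Ndufs1, Sdha and Atp5pb. On the values as deposited, with no scaling between arrays, 4 members were lower and 0 higher in group A than in group D (9.64% and 1.84% of all genes). In group C, 71 were lower than in group D (35.0% of all genes were lower there). Compared with groups B and C, 3 were lower and 65 higher in group A (7.05% and 40.6% of all genes). The median differences from group D were then -0.87 (group B) and -1.03 (group C), with -0.65 and -0.80 for all genes, and that of group A from the gavage groups was 1.12 (0.73 for all genes), or 0.70 with centring on the 75th percentile. Ndufb3 (0.15), Ndufv2 (0.14), Uqcrh (0.14) and Atp5f1a (0.09) changed sign without scaling, and Ndufa9 (-0.26) with its other probe set. The 22 members higher in group A than in group D came to 8 without a variance trend and to 2 with only the groups compared; the cause was not tested.

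Leaving out each array gave, for group A against group D, 8 to 14 lower, 7 (without A2) to 24 higher and medians of 0.11 to 0.33. For group B it gave 0 to 26 lower and medians of -0.35 to -0.14, and for group C 0 to 45 lower and medians of -0.41 to -0.20, with the extremes 26, 45, -0.35 and -0.41 all without D3. For group A and the gavage groups it gave 8 to 11 lower, 43 to 55 higher and medians of 0.43 to 0.54, and for group B against group C medians of 0.04 to 0.11. With the replicate number as a block, 11 members were lower and 23 higher in group A than in group D, and 9 and 51 against groups B and C; of the 12 arrays 9 correlated best with their own number. With 3 arrays per group, small differences cannot be seen, and a low probe set near background limits Cox7a1, Cox7b2 and Cox8b.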
